A study of Mus musculus with 8 samples.

Results

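Cells carrying RNA of Vcan or Mpeg1 were taken from mouse bone marrow cultures, and they made up 1268 of 17384 kept cells. Membership required at least 3 UMIs (unique molecular identifiers, each standing for 1 captured RNA molecule) of Vcan and Mpeg1 together. It also required fewer than 10 UMIs per 10000 from the neutrophil genes Retnlg, Mmp9 and Cxcr2 summed, and fewer than 10 per 10000 from the class II genes Cd74, H2-Aa, H2-Ab1 and H2-Eb1 summed. A cell was kept when 300 or more genes were detected and mitochondrial RNA took no more than 10% of its UMIs. The members were thus chosen by measured levels of these 9 genes, which are given below as a description. The 1268 members comprised 630 cells of cultures given deoxycholic acid and 638 cells of the media control. They are called Vcan or Mpeg1 cells here, because the name of Vcan-positive monocyte-like cells held for only some of them.

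In both groups, mouse whole bone marrow was cultured for 1 week in a hydrocortisone-containing long-term medium on irradiated AFT024 cells, a stromal line from fetal liver that acts as a feeder layer. The tested cultures also received deoxycholic acid at 35 µM, and the media control received no bile acid. This bile acid is a secondary one, formed by bacteria of the gut. The title of the series refers to myelopoiesis, the making of myeloid blood cells, and to the vitamin D receptor. Before droplet capture, cells were sorted as lineage-negative, a gate meant to leave out cells with surface markers of mature lineages. The labels list 4 samples in each group, but each cell in the deposited counts carries only its group. Each group was therefore treated as 1 library. With 1 library per group there is no test of a difference, and no p-value is given. Intervals are exact 95% intervals for counting error only, and no difference below has a replicate check.

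Monocytes and neutrophils both descend from granulocyte-monocyte progenitors. A developing neutrophil first makes primary granule enzymes such as Elane and Mpo, then secondary granule proteins such as Ltf (lactoferrin), Camp (cathelicidin), Ngp and Lcn2, and gains Cxcr2 late. A developing monocyte instead acquires the receptor Csf1r, the chemokine receptor Ccr2, Ms4a6c and Ctss (cathepsin S). Vcan encodes versican, a matrix proteoglycan whose RNA is a usual marker of classical monocytes in human blood. Mpeg1 encodes perforin-2, a pore-forming protein that acts on engulfed bacteria in macrophages and neutrophils.

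The libraries differed in depth. Deoxycholic acid members had a median of 17748 UMIs and 3443.5 genes per cell, against 23463.5 UMIs and 3923 genes in media control members. The medians of the other kept cells were 14658 and 18935 UMIs in deoxycholic acid and media control cells. Mitochondrial RNA took a median of 2.04% of UMIs in deoxycholic acid members and 1.96% in media control members. Gm42418, a gene model that overlaps ribosomal RNA sequence, took a median of 115 UMIs per 10000 in deoxycholic acid members and 82.8 in media control members. In the other kept cells it took 60.7 and 44.7 per 10000, so it too was higher with deoxycholic acid. Across both libraries 25 barcodes were shared, and 0 of them belonged to members.

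The members were not all Vcan-positive. Of the 1268, 538 cells (42.4%) had no Vcan UMI, 272 of them in the deoxycholic acid library and 266 in the media control, while 197 had no Mpeg1 UMI. At least 3 Vcan UMIs were found in 495 members, 39.0% of all. Mpeg1 alone met the minimum in 635 members, Vcan alone in 406, each gene by itself in 89, and only their sum in 138. The 495 are called Vcan cells below, and the 635 with at least 3 Mpeg1 but fewer than 3 Vcan UMIs are called Mpeg1-only cells. The 635 Mpeg1-only cells comprised 324 deoxycholic acid and 311 media control cells, and the 495 Vcan cells comprised 242 and 253.

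Vcan and Mpeg1 were spread over cells in different ways. Among kept cells below both limits, 609 had 1 Vcan UMI, 194 had 2 and 131 had 3, and 43 cells had 15 or more. The highest member counts of Vcan were 37 UMIs in the deoxycholic acid library and 49 in the media control. Mpeg1 fell off more steeply, with 2818 cells at 1 UMI, 985 at 2, 385 at 3 and 34 at 6, and no cell above 12 UMIs in either library. The minimum therefore lay in the long tail of Vcan and on the steep slope of Mpeg1.

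**Figure D1:**
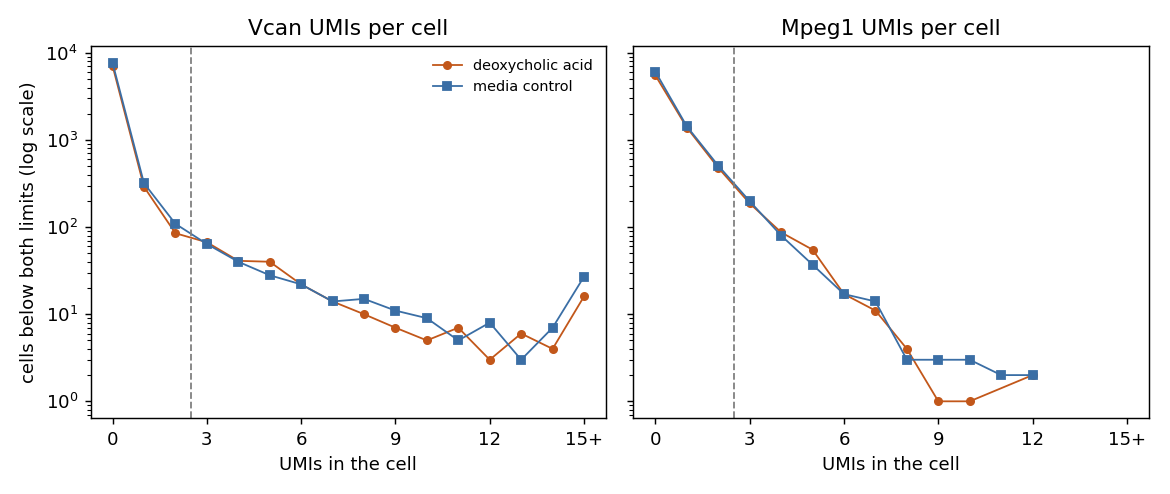
Number of kept cells below both limits (vertical axis, log scale) by the UMIs of Vcan (left) or Mpeg1 (right) in the cell; circles are the deoxycholic acid library, squares the media control, the dashed line marks the minimum of 3 UMIs and 15+ stands for 15 or more. The Vcan curve runs out to a tail of 43 cells at 15 or more UMIs over both libraries, and the Mpeg1 curve ends at 12.

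The 2 sets differed in neutrophil granule RNA, which the rule did not use. Cells with at least 3 Vcan UMIs had a median of 34.2 UMIs per 10000 from Ltf, Camp, Ngp and Lcn2 summed in the deoxycholic acid library and 30.5 in the media control. In Mpeg1-only cells the medians were 364 and 423 per 10000. The other kept cells had 288 and 283 per 10000. Mpeg1-only cells thus lay above the median of the other cells and Vcan cells far below it, in both libraries. The share of cells under 100 per 10000 was 71.5% and 72.7% of Vcan cells in the deoxycholic acid and media control libraries, against 12.04% and 7.40% of Mpeg1-only cells. Granule RNA was lower in cells with more Vcan, with medians of 283 per 10000 in cells with 0 Vcan UMIs, 136 with 1, 124 with 2, 62.1 with 3 and 20 with 15 or more. By Mpeg1 the median was 213 in cells with 0 UMIs. It was higher in cells with 1 to 4 Mpeg1 UMIs, at 342 with 1 UMI, 357 with 2, 363 with 3 and 333 with 4.

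**Figure D2:**
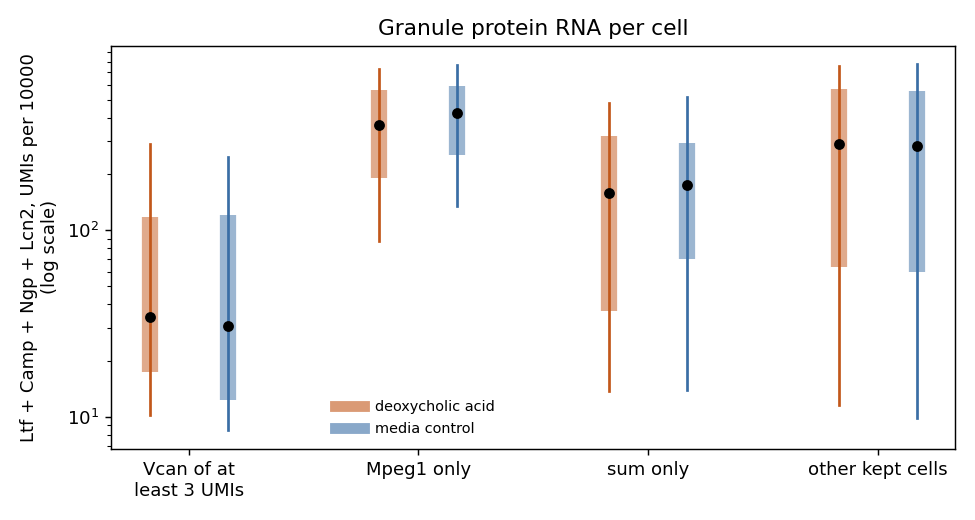
Summed Ltf, Camp, Ngp and Lcn2 per cell in UMIs per 10000 (log scale) by set of cells, deoxycholic acid left of media control in each pair; dots are medians, thick bars the 25th to 75th and thin lines the 10th to 90th percentiles of cells. Cells with at least 3 Vcan UMIs have medians of 34.2 and 30.5, and Mpeg1-only cells 364 and 423.

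Ltf and Camp taken singly, Cd177, and the calprotectin genes summed were lower in Vcan cells than in Mpeg1-only cells. Ltf was at 159 CPM (UMIs of the gene per 1000000 UMIs of all genes, summed over the cells of a set) in Vcan cells of both libraries together, against 1678 in Mpeg1-only cells and 1022 in the other kept cells. Camp was at 943, 8555 and 8649 CPM in these 3 sets, and Cd177, a neutrophil surface protein, at 80.8, 453 and 324 CPM. S100a8 and S100a9, the subunits of calprotectin, had per-cell medians of 506 and 527 UMIs per 10000 summed in deoxycholic acid and media control Vcan cells. In Mpeg1-only cells these medians were 2267 and 2383. The primary granule enzyme gene Elane was at 799 CPM in Vcan cells and 1021 in Mpeg1-only cells, both below the 3330 CPM of the other kept cells. The 138 cells admitted only by the sum lay between, with granule medians of 158 and 174 per 10000 in the deoxycholic acid and media control libraries.

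Some monocyte markers were raised in Vcan cells and not in Mpeg1-only cells, and others in both. A marker was counted as raised at 20 CPM or more with a log2 ratio of at least 0.5 over the other kept cells, 10 CPM being added to each side. Of 12 monocyte markers, 6 were raised in Vcan cells, namely Ms4a6c, Ccr2, Ctss, F13a1, Fn1 and Klf4. In Mpeg1-only cells 3 were raised, F13a1, Fn1 and Psap, so F13a1 and Fn1 were raised in both sets, and over all members F13a1, Fn1 and Ms4a6c. The 12 markers summed to 1850 and 1559 CPM in deoxycholic acid and media control Vcan cells, 1613 and 1484 CPM in Mpeg1-only cells and 1354 and 1259 CPM in the other kept cells. Most of the Mpeg1-only sums came from Ly6c2, another of the 12, at 965 and 936 CPM. Ly6c2 was not raised in Vcan cells or in Mpeg1-only cells, so the sums say little about the raised markers. Ms4a6c stood at 79.3 CPM in Vcan cells, 2.42 in Mpeg1-only cells and 5.997 in the other kept cells. Ccr2 stood at 30.4, 2.496 and 6.82 CPM, and Ctss at 33.8, 1.72 and 1.30 CPM. In the Mpeg1-only set, Ms4a6c and Ccr2 were thus below the other kept cells and Ctss was close to them. Other monocyte genes were low even in Vcan cells, with Csf1r at 4.02 CPM, Fcgr1, an Fc receptor, at 3.45 and Cx3cr1, a chemokine receptor, at 0.411.

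Shares of cells with a UMI were compared after each cell was thinned to 5000 UMIs. Ms4a6c was then detected in 27.1% of Vcan cells, 1.13% of Mpeg1-only cells and 1.99% of other kept cells. It was detected in 8.84% of cells in the range of basophils (Mcpt8 and Prss34 at 10 or more per 10000 summed), a cell type of another lineage. Ccr2 was detected in 13.4% of Vcan cells and 0.483% of Mpeg1-only cells, but in 31.5% of basophil-range cells. Of the 12 monocyte markers, 4 were raised in basophil-range cells, namely Ccr2, Ms4a6c, F13a1 and Klf4, so these cells do not measure the background of those genes. The median depth of basophil-range cells before thinning was 8471 UMIs, against 19913.5 in members. Ctss was detected in 16.5% of Vcan cells and 0.552% of basophil-range cells, and S100a4, a calcium-binding protein, in 83.1% and 14.9%. Csf1r was detected in 1.22% of Vcan cells (interval 0.4497 to 2.64), 0% of Mpeg1-only cells (0 to 0.592), 0.223% of other kept cells and 2.76% of basophil-range cells (0.903 to 6.33). Before thinning, 47.9% and 63.2% of Vcan cells had an Ms4a6c UMI in the deoxycholic acid and media control libraries. The median depths of these Vcan cells differed, at 18065.5 UMIs with deoxycholic acid and 27741 in the media control. With cells thinned to 5000 UMIs, the shares were 25.4% (interval 20.03 to 31.4) with deoxycholic acid and 28.7% (23.2 to 34.7) in the media control.

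**Figure D3:**
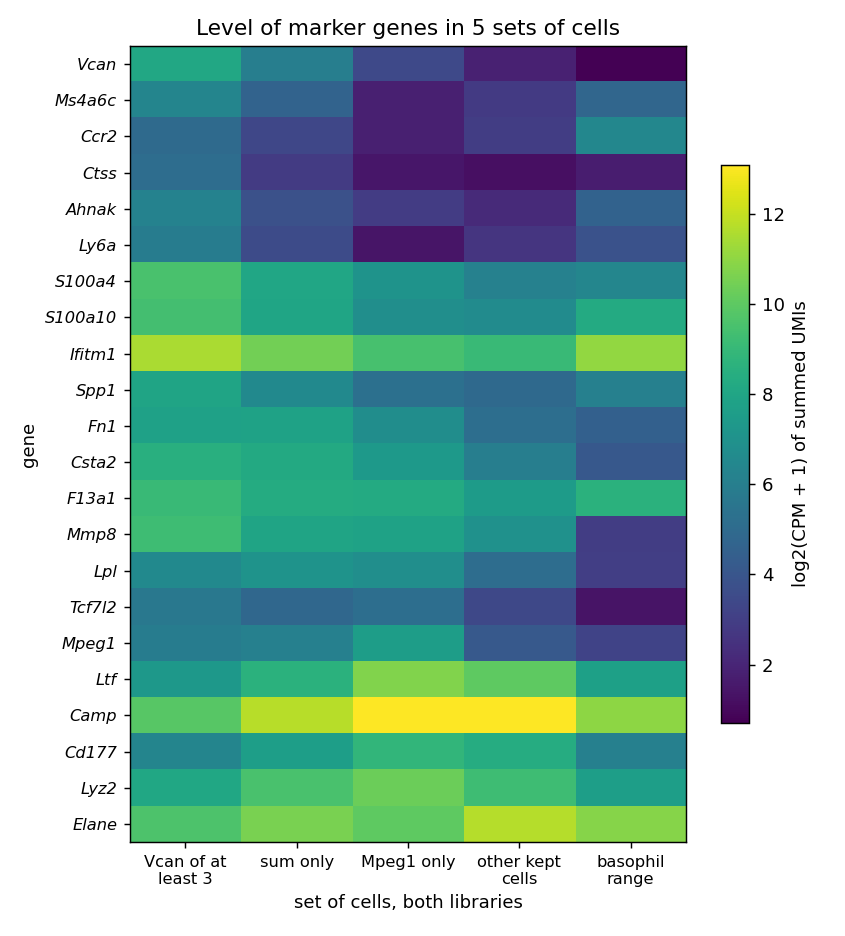
Level of 22 genes as log2(CPM + 1) of UMIs summed over both libraries, in cells with at least 3 Vcan UMIs, cells admitted only by the sum, Mpeg1-only cells, other kept cells and basophil-range cells. Ms4a6c, Ctss and Ahnak are high in the Vcan column and low in the Mpeg1-only column, while Ltf and Camp run the other way.

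Immature neutrophil markers moved with the division into Vcan and Mpeg1-only cells. Mature neutrophil markers were mixed, with Mmp8 raised in both sets and others in only 1 of them, although their sum was higher in Vcan cells. Of 10 immature neutrophil markers, 0 were raised in Vcan cells, where they summed to 12539 CPM, and 2 (Ltf and Chil3) were raised in Mpeg1-only cells, where they summed to 48854. By library the sums were 14138 and 11492 CPM in deoxycholic acid and media control Vcan cells, and 47716 and 49825 CPM in Mpeg1-only cells. The sum in the other kept cells was 36230 CPM. Of 12 mature neutrophil markers, 4 were raised in Vcan cells, among them Mmp8, Cxcl2 and Clec4d, and 3 in Mpeg1-only cells, Mmp8, Ccl6 and Mxd1. They summed to 1914 and 1632 CPM in deoxycholic acid and media control Vcan cells, 1396 and 1385 CPM in Mpeg1-only cells and 1065 and 1027 CPM in the other kept cells. Of 12 macrophage markers, Cd68 and Apoe were raised in Vcan cells and 0 in Mpeg1-only cells, where C1qa, C1qb and C1qc had no UMI. No marker of conventional dendritic cells, basophils, erythroid cells, megakaryocytes, B cells, T or NK cells or stromal fibroblasts was raised in members, and Cd3e and Fcer1a had no UMI. Single markers of 3 other classes were raised, the eosinophil ribonuclease Ear2 in members, and Bst2 of plasmacytoid dendritic cells and Calr of progenitors in Vcan cells. The part of these markers in the results below was not tested.

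The genes that set members most apart from the other kept cells were led, apart from Vcan and Mpeg1, by S100a4, Fn1, Csta2, Spp1, S100a10, Ifitm1 and Mmp8. Since the rule chose the cells, these levels describe them and test nothing. S100a4 was at 735 CPM in Vcan cells, 132 in Mpeg1-only cells and 69.3 in the other kept cells. S100a10, its relative that binds annexin A2, was at 666, 113 and 102 CPM, and Spp1, the secreted matrix protein osteopontin, at 245, 37.9 and 29.6 CPM. These 3 were high in the Vcan set and, in Mpeg1-only cells, much nearer to the other kept cells. Ahnak, a giant scaffold protein, showed the same order at 71.4, 6.40 and 3.54 CPM, as did the interferon-inducible Ifitm1 at 2896, 712 and 547 CPM. Ranked by Vcan over Mpeg1-only cells, Vcan and Ms4a6c were followed by Hpgd, Fabp5 and Ly6a, ahead of S100a10, Spp1, S100a4 and Ahnak. In deoxycholic acid and media control Mpeg1-only cells, Hpgd was at 3.90 and 3.18 CPM and Ly6a at 2.88 and 0.578. Their levels in Vcan cells are given below.

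A second set of genes was high in both kinds of member. Fn1 (fibronectin) was at 216 CPM in Vcan cells, 110 in Mpeg1-only cells and 35.2 in the other kept cells. Csta2, a stefin that inhibits cysteine proteases, was at 366, 165 and 62.0 CPM. The lipoprotein lipase gene Lpl was at 95.1, 113 and 34.3 CPM, the clotting factor gene F7 at 111, 103 and 43.5 CPM, and the transcription factor gene Tcf7l2 at 50.2, 35.8 and 9.59 CPM. F13a1, the A subunit of clotting factor XIII, was at 550, 306 and 177 CPM, and Shtn1 at 136, 143 and 67.9 CPM. Each of these genes was above the other kept cells in both sets of members.

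Cells at the edges of the rule are described here by their values. The 1038 cells below both limits with a sum of 2 UMIs, just outside, had a median of 363 granule UMIs per 10000, 7.98 CPM of Ms4a6c and 8.53 CPM of Ahnak. The 491 members with a sum of 3, just inside, had 278 per 10000, 14.1 CPM of Ms4a6c and 8.21 CPM of Ahnak, and the 777 members with 4 or more had 134 per 10000, 52.3 CPM of Ms4a6c and 51.2 CPM of Ahnak. At the neutrophil limit, 74 members had 5 to under 10 UMIs per 10000 of the 3 neutrophil genes, and 23 cells just outside had 10 to under 15. The 74 members had a granule median of 376 per 10000 and 39.5 CPM of Ms4a6c, and the 23 cells outside had 256 per 10000 and 3.31 CPM. The class II limit left out 1 cell, of the deoxycholic acid library.

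Members were 7.57% of kept deoxycholic acid cells (95% interval 7.01 to 8.16) and 7.04% of kept media control cells (6.52 to 7.59). The ratio of the shares was 1.08 (0.962 to 1.20). Cells with at least 3 Vcan UMIs were 2.91% and 2.79% of kept deoxycholic acid and media control cells, a ratio of 1.04 (0.870 to 1.25). Mpeg1-only cells were 3.89% and 3.43%, a ratio of 1.13 (0.968 to 1.33). Each of these 3 counting intervals held 1, which is not a test of the shares.

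A minimum in raw UMIs is easier to meet in a deeper cell, and the media control was deeper. With every cell thinned to 5000 UMIs before the rule was applied, 144 of 7670 deoxycholic acid cells (1.88%, 1.59 to 2.21) and 105 of 8394 media control cells (1.25%, 1.02 to 1.51) were members, a ratio of 1.501 (1.16 to 1.95). Shallower cells were left out, 651 with deoxycholic acid and 669 in the media control. The ratio for Vcan alone was 1.17 (0.799 to 1.73), from 59 and 55 cells. For Mpeg1 alone it was 2.03 (1.33 to 3.16), from 65 and 35 cells. At 10000 UMIs the ratios were 1.31 (1.09 to 1.58) for the sum, 1.13 (0.854 to 1.48) for Vcan alone and 1.31 (0.979 to 1.75) for Mpeg1 alone. More cells were too shallow for that depth and were left out, 2223 with deoxycholic acid and 1935 in the media control. Over all kept cells, Mpeg1 was at 30.8 CPM with deoxycholic acid against 23.0 in the media control, a log2 ratio of 0.42, and Vcan at 15.5 against 13.5 CPM, a log2 ratio of 0.21. At matched depth the counting interval lay above 1 for the sum and, at 5000 UMIs only, for Mpeg1 alone. That of Vcan alone held 1 at both depths. With 1 library per group these intervals test neither the ratios nor a difference between the 2 genes.

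Genes were next compared between deoxycholic acid and media control members. A gene was measured when the library with more of it held 20 CPM and 50 UMIs or more, and was counted as past the fold at a log2 ratio of at least 0.5 either way. Of 4916 measured genes, 103 (2.1%) were past it on the higher side with deoxycholic acid and 185 (3.76%) on the lower side. The median log2 ratio was 0.03, and 95% of genes lay between -0.57 and 0.47. In the other kept cells, from the same libraries, 1.66% and 3.17% of 4642 genes were past the fold on the higher and lower side. Weighting every cell equally, in place of summing UMIs, changed the counts in members to 125 higher and 140 lower. Where ratios are given below with cells thinned, the rule was applied again after thinning. They then come from fewer members, 144 deoxycholic acid and 105 media control cells at 5000 UMIs. At 10000 UMIs these were 241 and 215 cells, so depth and the set of cells changed together.

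The gene with the highest ratio was Fosb, and the lowest was Mrps28. The ratios in the other kept cells come from the same libraries and stand beside them as values only. Fosb, an AP-1 transcription factor that is switched on within minutes of stimulation, was at 69.4 CPM in deoxycholic acid members against 28.7 in media control members, a log2 ratio of 1.27 (1.11 to 1.44). In the other kept cells its log2 ratio was 0.89. Klf10, a zinc finger factor induced by TGF-beta, was at 43.4 against 23.7 CPM, with log2 ratios of 0.87 in members and 0.91 in the other kept cells. Gpnmb, a glycoprotein of phagocytes, was at 20.6 against 8.82 CPM, a log2 ratio of 1.23, but 1 cell held 19.4% of its deoxycholic acid UMIs. The noncoding RNA Dleu2 was at 141 against 79.2 CPM, a log2 ratio of 0.83.

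Replication-dependent histone genes were found on both sides. Hist1h2ap was at 1471 CPM in deoxycholic acid members against 733 in media control members (log2 ratio 1.01), and Hist1h4h at 152 against 83.4 CPM (0.87). Hist1h2ai had a log2 ratio of 1.18, and Hist1h3b one of 0.88, which was -1.13 with cells thinned to 5000 UMIs. Hist1h2af went the other way, at 25.7 against 60.7 CPM (-1.24). These genes have near-identical copies among which reads can be shared, so the value of each is uncertain. Gm10076, a predicted gene, was at 1167 against 568 CPM (1.04).

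On the lower side, the 9 genes other than Hist1h2af have varied roles. Mrps28, a protein of the mitochondrial ribosome, was at 7.99 CPM in deoxycholic acid members against 30.6 in media control members, a log2 ratio of -1.94 (-2.27 to -1.62). Sdhd, a subunit of succinate dehydrogenase, was at 17.2 against 41.9 CPM (-1.28), and Eloc (elongin C, of ubiquitin ligase complexes) at 60.4 against 148 CPM (-1.30). The splicing factor gene Srsf9 (-1.28), Magohb of the exon junction complex (-1.33), Cdc26 of the anaphase-promoting complex (-1.10), Smim26 (-1.81), Washc3 (-1.29) and Unc50 (-1.25) were the others of the 10 lowest. In the other kept cells these log2 ratios lay between -1.003 for Cdc26 and -1.72 for Smim26. Transcript length moved with the ratio. Over 4894 genes with a length, Spearman's rho was 0.369, and the median log2 ratio was -0.10 in the shortest of 3 equal sets of genes, 0.05 in the middle one and 0.12 in the longest. This correlation is across genes of the same 2 libraries, and its part in the ratios was not tested.

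**Figure D4:**
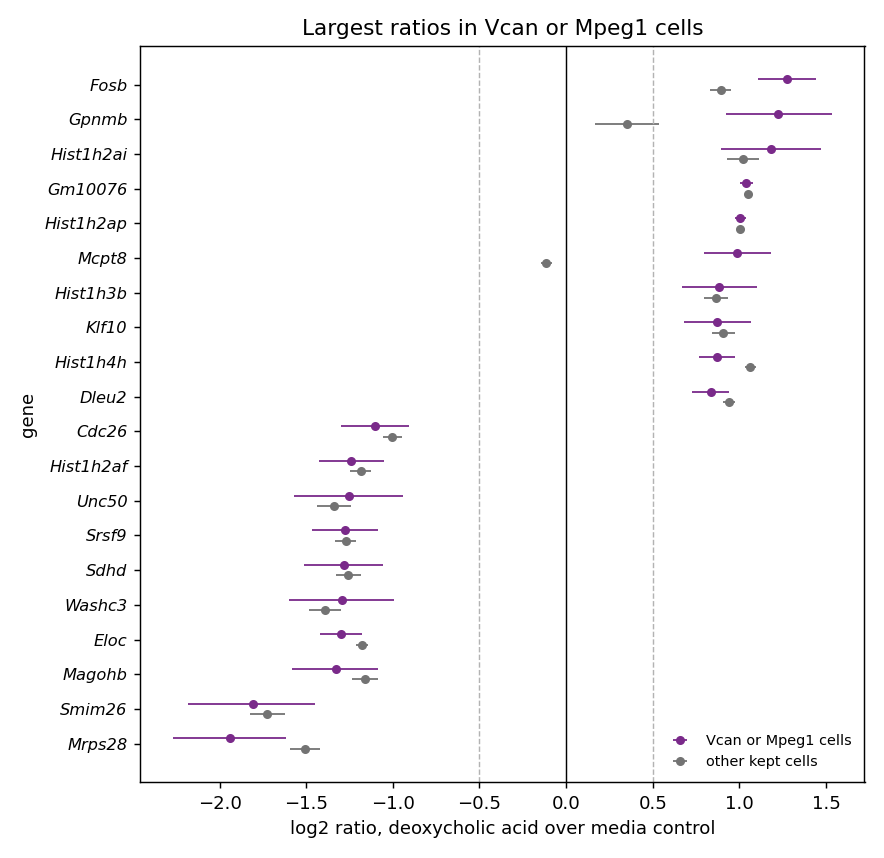
Log2 ratio of deoxycholic acid over media control for the 10 genes with the highest and the 10 with the lowest ratio in Vcan or Mpeg1 cells (upper point of each pair) and in the other kept cells (lower point); bars are exact 95% counting intervals and dashed lines mark 0.5 and -0.5. Mcpt8 stands at 0.99 in Vcan or Mpeg1 cells and -0.11 in the other kept cells.

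The ratios in members were next set against those in the other kept cells. Over 4539 genes measured in both, the difference of the log2 ratios, members minus other kept cells, lay between -0.23 and 0.20 for 95% of genes. Mcpt8, a protease of basophil granules, differed most. It was at 45.3 CPM in deoxycholic acid members against 22.9 in media control members (0.99), and at 100 against 108 CPM in the other kept cells (-0.11). It was seen in 172 and 174 deoxycholic acid and media control members, and the cell with most held 8.07% and 3.49% of its UMIs. The other basophil protease gene, Prss34, had 5 and 7 UMIs in these members, and Fcer1a had none. The 9 markers of basophils or mast cells other than Mcpt8 summed to 4.66 CPM in deoxycholic acid members and 3.86 in media control members. In the other kept cells, which hold the basophil-range cells, they summed to 55.9 and 90.1 CPM. Basophil-range cells were 1.25% of kept deoxycholic acid cells and 1.66% of kept media control cells. The part of these markers and cells in the 2 Mcpt8 ratios was not tested. Fh1 (0.39), Fosb (0.38), Rae1 (0.37) and Renbp (0.36) followed on the positive side. On the negative side stood Mri1 (-0.50), Mrps28 (-0.43), Ppme1 (-0.41), Prmt5 (-0.37) and Prpf19 (-0.37). None of these differences has a test.

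The levels of the rule's own genes are limited by the rule and are given as a description. Mpeg1 was at 140 CPM in deoxycholic acid members against 105 in media control members (log2 ratio 0.42, but -0.04 with cells thinned to 10000 UMIs), and Vcan at 142 against 126 (0.17, but -0.03 with cells thinned to 5000 UMIs). Retnlg was at 34.9 against 36.9 CPM, Cxcr2 at 27.1 against 22.3 and Mmp9 at 4.49 against 3.19. Cd74 was at 2.41 against 1.41 CPM, H2-Ab1 at 4.74 against 5.51 and H2-Eb1 at 0.166 against 0.123, while H2-Aa had 0 UMIs and 1 UMI.

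Among the leading genes of the members, Spp1 and S100a10 were lower with deoxycholic acid, and the clotting factor genes F13a1 and F7 were higher. Spp1 was at 100 CPM in deoxycholic acid members against 158 in media control members (log2 ratio -0.66), and S100a10 at 309 against 410 (-0.41). In Vcan cells the log2 ratios were -0.67 and -0.40, while in Mpeg1-only cells, where both genes were low, they were 0.15 and 0.08. S100a4 was at 382 against 423 CPM (-0.15), a direction that turned with cells thinned to 5000 UMIs (0.06) or weighted equally (0.04). F13a1 was at 484 against 361 CPM (0.42), F7 at 124 against 95.7 (0.37) and Shtn1, which encodes shootin 1, known from neuron polarity, at 166 against 116 (0.52). Ifitm1 was at 1644 against 1796 CPM (-0.13), Fn1 at 179 against 163 (0.14) and Csta2 at 282 against 255 (0.15, but -0.02 with cells thinned to 10000 UMIs). Apoc2 (-0.01) and Lpl (0.06) were nearly level.

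Ms4a6c, which followed Vcan in the ranking of Vcan over Mpeg1-only cells, was at 69.1 CPM in deoxycholic acid Vcan cells against 86.0 in media control Vcan cells (log2 ratio -0.31). Over all members it was at 30.3 against 43.7 CPM (-0.53, interval -0.71 to -0.34), and in the other kept cells its log2 ratio was -0.87. Ccr2 was at 29.9 against 30.7 CPM in Vcan cells (-0.04), Ctss at 36.3 against 32.2 (0.17), F13a1 at 662 against 477 (0.47) and Klf4 at 25.1 against 16.8 (0.58). The monocyte markers of Vcan cells thus had no common direction. Ahnak was at 84.7 against 62.8 CPM in Vcan cells (0.43), although in all members 1 cell held 10.4% of its deoxycholic acid UMIs. Hpgd, a prostaglandin-degrading enzyme, was at 54.0 against 82.6 CPM (-0.61) and Ly6a, the stem cell antigen Sca-1, at 39.7 against 70.0 CPM (-0.82) in Vcan cells; both were among the genes highest in Vcan over Mpeg1-only cells and were picked after their values were seen.

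Gene lists were then described by their measured members in all Vcan or Mpeg1 cells, to be read beside all measured genes, of which 54.6% had a positive ratio, 45.4% a negative one, 2.1% were past the fold on the higher side and 3.76% on the lower, with a median of 0.03. Of 14 measured immediate early genes, 9 had positive ratios, 6 were past the fold on the higher side and 0 on the lower, with a median log2 ratio of 0.34. Jun was at 705 CPM in deoxycholic acid members against 483 in media control members (0.54), Fos at 273 against 180 (0.60), Klf6 at 355 against 237 (0.58) and Dusp1, a MAP kinase phosphatase, at 117 against 74.0 (0.66). Fosb and Klf10 were the others past it. Zfp36 (-0.33) and Myc (-0.42) lay on the other side of 0, so the list was not uniform. In the other kept cells the median was 0.27, with 4 genes past the fold on the higher side and 1 on the lower.

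All 6 measured growth factor receptor genes had positive ratios, with a median of 0.29 and none past the fold, but with cells thinned to 10000 UMIs the median was -0.01. Csf2ra and Csf2rb, the chains of the GM-CSF receptor, were at 116 against 92.9 CPM (0.32) and 119 against 93.9 CPM (0.34). Il4ra had a log2 ratio of 0.31 and Ifngr1 one of 0.07. Trafficking receptors and integrins had a median of 0.15, with 0 of 10 past the fold on the higher side and Cd9, a tetraspanin, on the lower (34.3 against 48.7 CPM, -0.51). Itgb2 was at 151 against 126 CPM (0.26), Itgam at 143 against 134 (0.09) and Emb at 488 against 473 (0.04).

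Among transcription factors of the monocyte lineage, Cebpb was past the fold and the other 6 measured genes were not. This C/EBP factor was at 166 CPM in deoxycholic acid members against 303 in media control members, a log2 ratio of -0.87 (-0.95 to -0.80). The log2 ratio was -0.92 in Vcan cells, -0.73 in Mpeg1-only cells and -0.93 in the other kept cells. Spi1, which encodes PU.1, was at 283 against 280 CPM (0.02). Runx1 (0.10), Klf2 (0.32), Tcf7l2 (0.36), Zeb2 (0.11) and Bach1 (0.06) made up the other measured genes of the list, whose median was 0.10, but -0.09 with cells thinned to 10000 UMIs. The list of the vitamin D receptor and its reported targets had 5 measured genes with a median of -0.16, and 2 were past the fold on the lower side, Cebpb and Spp1. Hp (haptoglobin) had a log2 ratio of -0.16, Cdkn1a one of 0.17 and Rxrb one of 0.04. Vdr itself had 13 UMIs in deoxycholic acid members and 16 in media control members, too few to compare.

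Granule genes were described by class, and no difference between the classes was tested. Of 9 measured primary granule genes, 7 had negative ratios and 2 were past the fold on the lower side, with a median of -0.25, against -0.19 in the other kept cells. Ctsg (cathepsin G) was at 881 CPM in deoxycholic acid members against 1393 in media control members (-0.66), and Nkg7 at 20.2 against 30.9 (-0.61). Prtn3 (-0.30) and Elane (-0.25, but 0.07 with a minimum of 1.5 UMIs per 10000) were the other abundant enzymes with negative ratios, Serpinb1a had -0.02, and Mpo was positive (0.16). Of 15 measured secondary and tertiary granule genes, 10 had positive ratios, near the share over all genes, and none was past the fold, with a median of 0.16. Ltf was at 1028 against 761 CPM (0.43) and Ngp at 14604 against 12869 (0.18), but Camp was at 3791 against 5344 (-0.50). Camp had a log2 ratio of -0.32 in Vcan cells and -0.70 in Mpeg1-only cells. Chil3 was at 7674 against 6295 CPM (0.29), and Lcn2 had a log2 ratio of 0.09. S100a8 was at 76368 against 62640 CPM (0.29) and S100a9 at 63837 against 72544 (-0.18), so the calprotectin subunits differed in opposite directions.

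The stefin A genes encode protease inhibitors and lie in a cluster of near-identical copies. All 8 measured had positive ratios, with a median of 0.19 and 1 past the fold, but the median was -0.02 with cells thinned to 10000 UMIs. Stfa1 was at 4641 CPM against 3011 (0.62), Cstdc5 at 7734 against 6703 (0.21), Cstdc4 at 4637 against 4394 (0.08) and Stfa2l1 at 1201 against 1162 (0.05). The median was 0.30 in Vcan cells and 0.08 in Mpeg1-only cells, a difference that was not tested. Reads can be shared between these copies, so single values are uncertain.

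Glycolysis and hypoxia genes had positive ratios in 16 of 18 cases, a median of 0.19 in members and 0.24 in the other kept cells. Hk2, the inducible hexokinase, was at 111 CPM in deoxycholic acid members against 69.0 in media control members (0.68) and was the only measured gene of the list past the fold. Gpi1 (0.24), Aldoa (0.17), Pkm (0.15) and Gapdh (-0.11) were its most abundant genes. In Vcan cells 4 genes were past the fold on the higher side, among them Bnip3, a mitophagy receptor, at 139 against 81.0 CPM (0.78). In Mpeg1-only cells Bnip3 was at 68.1 against 68.4 CPM (-0.01).

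Ribosomal protein genes had negative ratios in 18 of 18 cases and a median of -0.19, against -0.14 in the other kept cells. Rps3 was past the fold at 1497 CPM in deoxycholic acid members against 2223 in media control members (-0.57), while the abundant Rplp1 (-0.12), Rpl32 (-0.16) and Rpl13 (-0.17) differed less. Cell cycle genes were divided. Of 16 G2 and M phase genes, 11 had positive ratios, with a median of 0.15. Mki67 was at 630 against 521 CPM (0.28) and Top2a at 500.5 against 402 (0.32), whereas Cdk1 was at 65.6 against 95.9 (-0.55) and Birc5 (-0.23) and Ube2c (-0.27) were also negative. Of 15 S phase genes, 12 had negative ratios with a median of -0.05, which was 0.12 with cells thinned to 10000 UMIs, and Pcna, the polymerase clamp, was past the fold at 118 against 176 CPM (-0.58). Rrm2 (-0.07), Rrm1 (0.03) and Mcm7 (-0.03) lay near 0. In Vcan cells alone the S phase median was 0.11, with 11 of 15 positive.

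The remaining lists had medians within 0.1 of 0. S100, annexin and cytoskeletal genes had a median of -0.07, which was 0.01 with cells weighted equally, with 1 gene past the fold on each side. Those were Flna (filamin A), at 499 CPM in deoxycholic acid members against 347 in media control members (0.52), and Pfn1 (profilin), at 914 against 1413 (-0.63). Tmsb4x (-0.29), Actb (0.19) and S100a6 (0.09) were the other abundant genes. The Ifitm and interferon response list had a median of -0.09 and no gene past the fold, with Ifitm2 at -0.15, Ifitm3 at -0.06 and Ifitm6 at -0.09. Chemokines, cytokines and NF-kappaB feedback genes had a median of -0.08, which lay between 0.07 and 0.17 under 5 other settings, the highest with cells thinned to 5000 UMIs, so the list has no settled direction. Within that list Ccl3, a chemokine, was at 33.9 against 65.0 CPM (-0.94) and Tnfaip2 at 247 against 143 CPM (0.78), with Nfkbia (-0.32), Cxcl2 (-0.14) and Ccl6 (-0.08) between them.

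Pattern and Fc receptors had a median of 0.05, and lysosomal genes one of 0.07, with no gene of either past the fold; with cells thinned to 10000 UMIs the medians were -0.05 and -0.06. Tyrobp, the signalling adaptor of many myeloid receptors, had a log2 ratio of 0.05, Fcer1g one of -0.06, Cybb, the oxidase subunit, one of 0.24 and Clec12a one of 0.12. Ctsd (cathepsin D) was at 337 CPM in deoxycholic acid members against 286 in media control members (0.24), Lamp1 at 315 against 276 (0.19), Cst3 at 516 against 568 (-0.14) and Lyz2 at 738 against 813 (-0.14).

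**Figure D5:**
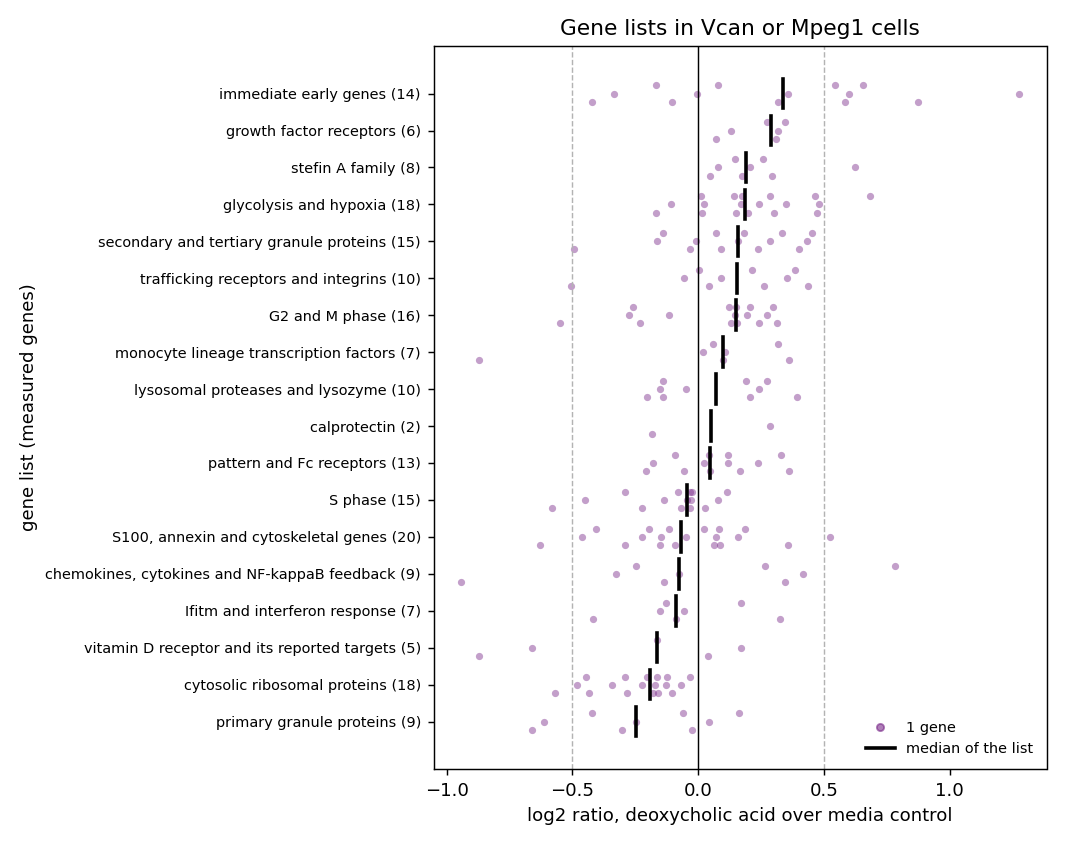
Log2 ratio of deoxycholic acid over media control in Vcan or Mpeg1 cells for each measured gene of 18 lists (points, spread vertically for legibility) with the median of each list (black bars); the number of measured genes follows each name and dashed lines mark 0.5 and -0.5. The immediate early list has the highest median (0.34) and the primary granule list the lowest (-0.25).

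The Vcan cells and the Mpeg1-only cells were also compared between the libraries apart from each other. In Vcan cells 269 of 4964 measured genes (5.42%) were past it on the higher side with deoxycholic acid and 247 (4.98%) on the lower. In Mpeg1-only cells 136 of 4862 (2.8%) and 126 (2.59%) were. Among lists, the secondary and tertiary granule median was 0.26 in Vcan cells and 0.02 in Mpeg1-only cells, with Fcnb (ficolin B) at 138 against 77.6 CPM in deoxycholic acid and media control Vcan cells (0.83). Mpo was at 170 against 110 CPM in Vcan cells (0.63) and at 195 against 205 in Mpeg1-only cells (-0.07). No difference between the 2 sets was tested.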

How the data were processed

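Per the labels' protocols, sorted cells were captured on the 10x Chromium system with 3′ chemistry 3.1, aiming at 8000 cells for each sample. The submitters' processing notes list Cell Ranger 6.0. Not given in the sources used here were genome build, annotation and any filter on barcodes. The deposited values are raw UMI counts, unnormalized, for 17866 barcodes (8520 deoxycholic acid, 9346 media control, with 131341422 and 183462851 UMIs) and 32285 genes. Every column gave a group and none gave a sample letter.

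CPM are the UMIs of a gene summed over a set of cells in 1 library, divided by that set's total. Ratios have exact binomial intervals, and the floor for a 0 was 3 counts. This step was checked on simulated counts of 32285 genes, where 100% of 200 genes changed 2-fold were past 0.5. The changed genes were drawn at 2 times the 20 CPM minimum or more, from sums over all members, and the only noise was counting error. Genes near 20 CPM and the smaller Vcan and Mpeg1-only sums were not covered. The check thus covers the calculation and not other differences between libraries. The members and the lists were chosen with earlier results of these data known. The genes named were the 10 highest and 10 lowest ratios, the 20 leading genes of members (at least 50 CPM), the 5 each way that differed most from other cells, the rule's genes and the 4 most abundant members of each list; further list members were named after their values were seen. A few genes the rule names are not reported here. Transcript lengths came from GENCODE vM21 by symbol. Doublets were kept in the main results: Scrublet (scanpy 1.11.5) marked only 0.0120% of deoxycholic acid and 0.0110% of media control cells and so had not worked. As an alternative, cells at or above the cut for the highest 6% of its scores were removed, 6.80% and 6.27% of kept cells in the 2 libraries. Python 3.11.15, numpy 2.4.6, scipy 1.17.1 and pandas 2.3.3 were used.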

Additional observations from a re-analysis of the deposited data

Results flagged for a closer look

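Mcpt8, the basophil granule protease, had a log2 ratio of deoxycholic acid over media control of 0.99 in Vcan or Mpeg1 cells and -0.11 in the other kept cells. It was picked out because the 2 sets of cells stood on opposite sides of 0. The other kept cells hold the basophil-range cells, 1.25% of kept deoxycholic acid cells and 1.66% of kept media control cells. The difference was not tested, since each group is 1 library.

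Ctsl (cathepsin L, a lysosomal protease) had a log2 ratio of -0.27 in cells with at least 3 Vcan UMIs, at 91.1 CPM with deoxycholic acid against 110 in the media control. In Mpeg1-only cells the log2 ratio was 0.68, at 25.1 against 15.6 CPM. It was picked out for the same reason, and the difference was not tested.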

How the results depend on the processing

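The ratio of member shares stayed between 1.04 and 1.11 under other raw minimums, limits, cell filters, single genes and doublet removal. It was 1.501 with cells thinned to 5000 UMIs, 1.31 at 10000 UMIs and 1.37 with a minimum of 1.5 UMIs per 10000; both settings other than 5000 UMIs were added after seeing the data. Genes past the fold were 103 higher and 185 lower of 4916 measured as reported. With a minimum of 5 UMIs they were 208 and 306 of 4994. For Vcan alone 269 of 4964 were higher, and with granule RNA under 100 per 10000, 222 of 4980. At 5000 UMIs 162 of only 1663 measured genes were higher, and at 10000 UMIs 326 of 4732. With no minimum on level, 1581 were higher and 1873 lower of 14487. The numbers measured differ, so the counts alone cannot be compared between settings. Some of these settings sum fewer cells and so fewer UMIs, and the part of counting error in the counts was not tested. After thinning the rule was applied again, so the members themselves also changed.

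Signs turned for Hist1h3b (-1.13), Prpf19 (0.25), S100a4 (0.056) and Vcan (-0.026) at 5000 UMIs, for Csta2 (-0.023) and Mpeg1 (-0.040) at 10000 UMIs, for Csta2 (-0.11), Elane (0.067) and Vcan (-0.16) with 1.5 UMIs per 10000, for Vcan (-0.29) with Mpeg1 alone and for S100a4 (0.042) with cells weighted equally; the cause was not tested. A turn was recorded only for followed genes whose interval as reported left out 0. Over these genes and settings, 11 values turned, another 128 lay outside the interval as reported and 461 lay within it. Of the list medians, 43 moved by more than 0.1 and 227 did not. The medians of 9 of 18 gene lists turned under at least 1 setting, most often that of chemokines, cytokines and NF-kappaB feedback genes (5 settings). No paired analysis was possible because cells carry no sample letter and no test was made. Replicates could not be left out for the same reason.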

Other observations

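The neutrophil limit left out 70 cells with at least 3 UMIs of Vcan and Mpeg1, 34 with deoxycholic acid and 36 in the media control. Their median depth was 7307 UMIs with deoxycholic acid and 10847.5 in the media control, below that of members. They carried Mpeg1 at 311 CPM against 120 in members, Cd14, the lipopolysaccharide co-receptor, at 73.6 against 8.19, Il1b (interleukin 1 beta) at 40.9 against 4.41 and Tcf7l2 at 92.6 against 41.1. Ms4a6c was at 4.09 against 38.0 CPM, and the proliferation gene Mki67 at 159 against 567 CPM.

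The cells with the highest 6% of Scrublet scores held 9.57% of deoxycholic acid and 9.65% of media control Mpeg1-only cells, and 3.31% and 4.74% of Vcan cells. Lars2, a mitochondrial tRNA ligase gene, was at 446 CPM in deoxycholic acid members against 252 in media control members (log2 ratio 0.82), and Gm42418 at 15164 against 9543 CPM (0.67); in the other kept cells the log2 ratios were 0.78 and 0.60.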
